A study of Mus musculus with 18 samples.

Results

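The mitochondrial ribosome translates the few proteins that mitochondrial DNA encodes, all of them subunits of the respiratory chain and ATP synthase. Its rRNAs are transcribed inside the organelle, whereas every one of its proteins is encoded in the nucleus, made on cytosolic ribosomes and imported. The genes are named Mrpl for the large subunit and Mrps for the small subunit. Activated T cells are known to enlarge their mitochondria and to increase respiration as they prepare to divide, and mitochondrial translation is needed for that growth.

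The genes described were chosen by name: each gene symbol in the count table that consisted of Mrpl or Mrps, a number and at most 1 further letter. Of 55284 named entries 78 met this rule, 49 with Mrpl names and 29 with Mrps names, and all 78 were annotated as genes in GENCODE vM21 (mouse, GRCm38, which is mm10), on 17 chromosomes. The name and the subunit do not always match. Mrps18a and Mrps30 are now placed in the large subunit, and Mrps36 is no longer counted as a mitoribosomal protein, so it was kept in the counts but in neither subunit. Mrpl53 was removed by the filter on low counts, which left 77 genes in the tests.

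RNA was sequenced from CD4+CD25- T cells of spleen and lymph node, taken from 3 competitive bone marrow chimeras numbered 10, 11 and 12, so that cells of both genotypes came from the same hosts. The hosts were irradiated CD45.1+ BoyJ mice that had received a mixture of wild-type (WT) marrow, in excess, and marrow lacking Nr4a1 and Nr4a3 in the germline (DKO), on a C57BL/6 background. NR4A1 and NR4A3 are nuclear receptors whose transcription rises with T cell receptor signaling and which take part in T cell tolerance. From each chimera and genotype 3 libraries were made: naive cells (CD62Lhi CD44lo FR4lo CD73lo), naive cells stimulated for 3 h with plate-bound anti-CD3 at 8 ug/ml and anti-CD28 at 2 ug/ml (stimulated), and anergic cells (CD62Llo CD44hi FR4hi CD73hi), the last sorted by surface phenotype and not stimulated. This gave 6 groups of 3 libraries, each library from a small number of sorted cells.

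Library totals ran from 16122020 to 39752234 counts, and the 78 genes held between 0.256% and 0.328% of each library. The tested genes had from 188 to 3949 counts per library. T cell markers summed to between 7585 and 12520 TPM (transcript counts per length, scaled to the same total in each library) in every library. Deletion could not be checked at the level of whole genes, because values summed over all exons resolve neither the deleted exon 2 of Nr4a1 nor the CRISPR-made change in Nr4a3. Nr4a1 was between 74.8 and 89.8 TPM in WT naive cells and between 79.2 and 107 TPM in DKO naive cells, and Nr4a3 between 2.36 and 3.44 TPM and between 2.40 and 5.38 TPM. In stimulated cells Nr4a1 was between 2927 and 5443 TPM in WT and between 5300 and 7343 TPM in DKO cells. Nr4a3 was there between 233 and 408 TPM in WT and between 389 and 571 TPM in DKO cells. In WT cells the naive and stimulated libraries from chimera 12 had the lowest normalization factors of their groups (0.892 and 0.550), and results that moved without them are given beside their main values.

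The genes of the mitochondrial ribosome were expressed in every group at moderate and rather even levels. Averaged over the 18 libraries, the 77 tested genes lay between 7.80 and 177 TPM, with a median of 49.1 TPM and quartiles of 27.6 and 83.5 TPM, a span of 22.7-fold. The highest were Mrpl54 (177 TPM), Mrps21 (147 TPM), Mrpl41 (134 TPM), Mrpl34 (134 TPM) and Mrpl52 (128 TPM), and together these 5 made up 15.9% of the summed level. Mrpl54, Mrpl41 and Mrpl52 belong to the proteins that the large subunit acquired in mitochondria and that bacterial ribosomes lack, whereas Mrps21 and Mrpl34 have bacterial counterparts.

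The lowest tested genes were Mrps25, a mitochondria-specific protein of the small subunit (mean 7.80 TPM), and Mrpl48, of the large subunit (mean 10.7 TPM). Mrps25 ran from 6.09 to 9.96 TPM over all libraries, and 69.8% of its exon bases overlapped exons of Nr2c2 on the opposite strand. Mrpl53 was listed between 0 and 0.596 TPM, and 88.0% of its exon bases were shared with Gm42688 on the same strand, so its low value cannot be told apart from reads given to neither or to the other gene. In all, 33 of the 78 genes shared exon bases with another gene, 9 of them over 20% (Mrps34, Mrpl19, Mrpl43, Mrps18b, Mrpl24, Mrps27 and Mrps18c besides Mrps25 and Mrpl53). Whether counting used strand is not given in the sources used here, so values of these genes may include reads of their partners. The 6 entries named as pseudogene copies, of Mrpl23, Mrpl27, Mrpl48 and Mrps36, each held at most 3.42% of the counts of the gene they are named after.

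In TPM, replicates were close to each other. The coefficient of variation of TPM between the 3 chimeras had a median over the tested genes of between 6.15% (DKO stimulated) and 9.23% (WT naive), and the widest single value was 24.8%, for Mrpl27 in WT naive cells. It does not describe the counts that were tested, which were scaled otherwise. The normalization factors of the WT stimulated libraries were 1.11, 0.980 and 0.550 in chimeras 10, 11 and 12. Summed over all 78 genes the level was 4481 ± 395 TPM in WT naive cells and 4420 ± 201 TPM in DKO naive cells (mean ± SD, n = 3 here and below). It was 4849 ± 250 TPM and 4849 ± 153 TPM in WT and DKO stimulated cells, and 4163 ± 261 TPM and 4424 ± 297 TPM in WT and DKO anergic cells. WT stimulated libraries (4560 to 5013 TPM) overlapped WT naive ones (4051 to 4826 TPM) and lay above WT anergic ones (3947 to 4453 TPM). In bulk values such as these, fewer cells of a type and less RNA per cell cannot be told apart.

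Stimulated cells were compared with naive cells of the same genotype, for genes that differ after 3 h with anti-CD3 and anti-CD28. Per the study's methods, naive cells were lysed directly after sorting, and no group was cultured without antibody. Effects of the antibodies and of 3 h in culture can therefore not be told apart. In WT cells 15 of the 77 genes rose and 2 fell, and in DKO cells 20 rose and 2 fell (edgeR quasi-likelihood test with a chimera term, Benjamini-Hochberg adjusted p below 0.05 over 33795 genes). That is 19.48% rising in WT cells and 25.97% in DKO cells. Over all genes tested, 7.13% rose and 4.79% fell in WT cells, and 8.34% rose and 5.73% fell in DKO cells. Among the 15067 better expressed genes (mean log2 CPM over 1), a closer background for this family, 15.05% rose and 10.1% fell in WT cells and 17.7% and 11.7% in DKO cells. The shares of the family that rose lay somewhat above those shares, and the shares that fell (2.60% in each genotype) lay below them.

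Most of the values lay above 0. The median log2 fold change of the 77 genes was 0.34 in WT cells, where the median of the better expressed genes was 0.06, and 0.41 in DKO cells, where that median was -0.15. In WT cells 64 of the 77 values were above 0, and in DKO cells 65. By the mean of the deposited TPM, which is scaled differently, 46 of the 77 genes were higher in stimulated cells in each genotype.

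**Figure D1:**
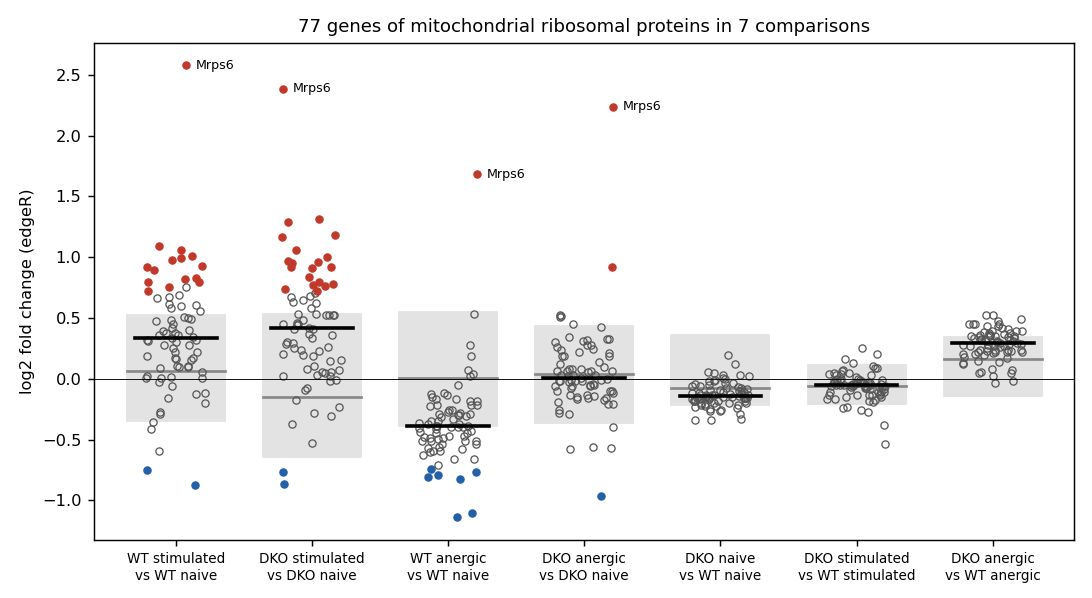
log2 fold changes of the 77 tested genes (points; red, called higher; blue, called lower; open, not called) in 7 comparisons, with their median (black bar) and, for the 15067 better expressed genes, the quartiles (gray box) and median (gray bar). The black median lies above the gray one after stimulation and below it in WT anergic cells, Mrps6 stands above all others in the 4 comparisons in which it was called, and no point is colored in the 3 comparisons between genotypes.

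The gene with the widest change was Mrps6, whose protein sits at the platform of the small subunit. In WT naive cells it was at 27.2, 25.7 and 36.5 TPM in chimeras 10, 11 and 12, and in WT stimulated cells at 133, 155 and 167.5 TPM. In DKO cells it was at 22.9, 29.2 and 24.3 TPM before and 104, 109 and 114 TPM after stimulation. Every stimulated library was thus above every naive library, in each genotype by a factor well beyond the spread between chimeras. The log2 fold change was 2.58 (SE 0.26, edgeR adjusted p = 1.16e-07) in WT cells and 2.38 (SE 0.26, edgeR adjusted p = 3.48e-07) in DKO cells.

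Mrps6 (chr16:92058270-92112227, plus strand, mm10) does not stand alone at its locus. Slc5a3, which encodes a transporter of myo-inositol, begins in the same first exon (chr16:92058322-92087473, plus strand) and lies within the first long intron of Mrps6. The shared bases number 159, which is 10.4% of the exon bases of Mrps6, and a further gene model, Gm49711, shares 19.9%. Slc5a3 itself was at 4.68, 9.29 and 2.95 TPM in WT naive cells and at 55.5, 50.6 and 44 TPM in WT stimulated cells, and it went from 5.38, 7.29 and 5.49 TPM to 29.3, 27.5 and 22.3 TPM in DKO cells. It rose with a log2 fold change of 3.51 (edgeR adjusted p = 2.33e-09) and 2.44 (edgeR adjusted p = 3.23e-07). Reads from the shared exon could be given to either gene, and their part in the value of Mrps6 was not tested.

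**Figure D2:**
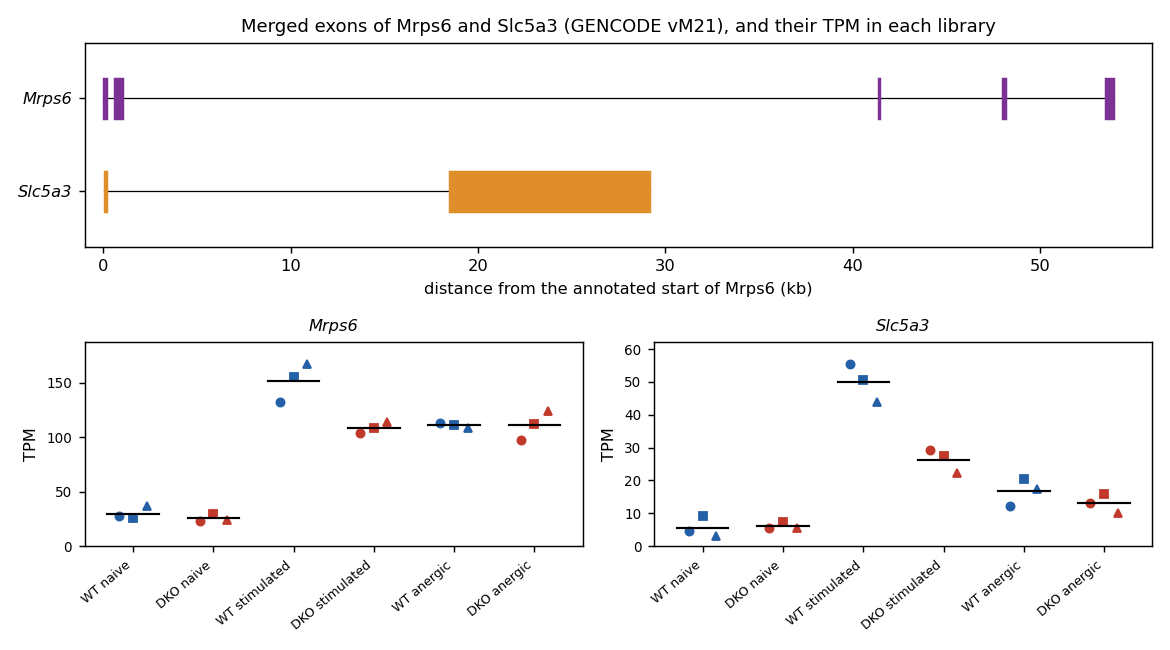
Top, merged exons of Mrps6 and Slc5a3 by distance from the start of Mrps6 (kb). Bottom, TPM of each gene in every library (blue, WT; red, DKO; circle, square and triangle, chimeras 10, 11 and 12; bar, mean); both genes were higher in stimulated and anergic than in naive cells, and the genes share only the exon at 0 kb.

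Next to Mrps6, the genes with the smallest adjusted p in one genotype or the other were mostly proteins of the large subunit. Mrpl17, a counterpart of a bacterial protein near the exit of the peptide tunnel, was at 21.6, 20.9 and 19.2 TPM in WT naive cells and 32, 40.2 and 39.4 TPM in WT stimulated cells. DKO cells went from 23.6, 23.6 and 21.1 TPM to 42.7, 47.9 and 48.3 TPM. The naive and stimulated libraries did not overlap in either genotype, and the log2 fold change was 1.10 (SE 0.24, edgeR adjusted p = 0.00262) in WT cells and 1.32 (SE 0.24, edgeR adjusted p = 0.000343) in DKO cells.

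Mrpl12 forms the flexible stalk that recruits translation factors and also binds the mitochondrial RNA polymerase. It was at 116, 100.4 and 103 TPM in WT naive cells and 168, 200.3 and 195 TPM in WT stimulated cells. In DKO cells the values were 109.7, 113 and 94.0 TPM and then 192, 233 and 205 TPM, again without overlap. The log2 fold change was 1.06 (SE 0.25, edgeR adjusted p = 0.00522) and 1.29 (SE 0.26, edgeR adjusted p = 0.000702). The other proteins at the base of the stalk were not called: Mrpl10, to which Mrpl12 binds, had log2 fold changes of 0.00 in WT (edgeR adjusted p = 0.999) and 0.30 in DKO cells (0.48), and Mrpl11 had 0.10 (0.965) and 0.21 (0.639). The sign of both in WT cells turned under other settings, and Mrpl10 passed in DKO cells in 2 of 11 alternatives, with values there between 0.23 and 0.69. The difference between Mrpl12 and these 2 genes was not itself tested.

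Mrpl16, a neighbor of the peptidyl transferase center, went from 31.4, 31.5 and 30.2 TPM to 51.8, 55.2 and 52.4 TPM in WT cells. Its log2 fold change was 0.99 (SE 0.21, edgeR adjusted p = 0.00143) there and 0.92 (SE 0.21, edgeR adjusted p = 0.00251) in DKO cells. Mrpl20, an early assembling protein in bacteria, and Mrpl50, which is specific to mitochondria, had log2 fold changes of 0.93 and 0.98 in WT cells and of 1.18 and 1.17 in DKO cells. Of the other large subunit genes, Mrpl15, Mrpl21, Mrpl32, Mrpl47, Mrps18a and Mrps30 rose in both genotypes, by between 0.72 and 0.95 on the log2 scale. In WT cells Mrps18a and Mrps30 did not pass without the naive and stimulated WT libraries of chimera 12. Mrpl3, Mrpl35, Mrpl43 and Mrpl54 passed the test in DKO cells alone, with log2 fold changes of between 0.72 and 0.78. That they passed in 1 genotype does not show a difference between genotypes, which the interaction test below addresses.

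In the small subunit Mrps10, in the head, and Mrps2, a core protein, rose besides Mrps6 and Mrps18b. Mrps10 was at 16.6, 14.6 and 19.5 TPM in WT naive cells and at 27.4, 27.5 and 27.5 TPM in WT stimulated cells, with a log2 fold change of 0.92 (SE 0.21, edgeR adjusted p = 0.00372), and 0.96 in DKO cells (edgeR adjusted p = 0.00223). Mrps2 had 0.82 and 1.06. Mrps7, a protein of the head that contacts rRNA, passed in DKO cells alone (log2 fold change 1.00, edgeR adjusted p = 0.00684), with 0.76 (0.0514) in WT cells.

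The 3 paralogs of the S18 family, which occupy different sites of the mitoribosome, can be set side by side. Mrps18b, of the small subunit, was at 43.5, 42.4 and 45.8 TPM in WT naive cells and at 76.8, 82.4 and 70.2 TPM in WT stimulated cells. DKO cells went from 50.6, 46.5 and 44.6 TPM to 74.0, 77.4 and 74.7 TPM. The log2 fold changes were 1.01 (SE 0.22, edgeR adjusted p = 0.00237) and 0.97 (SE 0.22, edgeR adjusted p = 0.00298). Mrps18a, of the large subunit, had 0.75 (edgeR adjusted p = 0.0433) and 0.91 (0.0106), and Mrps18c, of the small subunit, 0.32 (0.726) and 0.41 (0.407), with naive and stimulated WT libraries overlapping (47.5 to 64.7 TPM and 55.6 to 65.9 TPM). Mrps18b shares 30.5% of its exon bases with the antisense gene Gm16279, and Mrps18c shares 23.2% with Gm43511. Mrps18c passed in DKO cells in 2 of 11 alternatives, with only the groups compared and without the naive and stimulated WT libraries of chimera 12 (smallest adjusted p = 0.00923 with edgeR). Differences between the paralogs were not tested.

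Against the direction of the others, Mrpl58 and Mrpl34 fell in both genotypes. Mrpl58 encodes a peptidyl-tRNA hydrolase that became part of the large subunit and is known for the rescue of stalled mitoribosomes. It was at 64.2, 53.2 and 69.0 TPM in WT naive cells and at 29.9, 29.5 and 28.3 TPM in WT stimulated cells. In DKO cells it was at 58.2, 63.5 and 61.8 TPM and then at 32.9, 29.2 and 25.9 TPM. No stimulated library reached a naive one, and the log2 fold change was -0.88 (SE 0.23, edgeR adjusted p = 0.0092) in WT cells and -0.76 (SE 0.23, edgeR adjusted p = 0.0215) in DKO cells.

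Mrpl34, a small basic protein of the large subunit core and one of the family's highest genes, went from 147, 145 and 188 TPM to 92.8, 79.1 and 76.8 TPM in WT cells. DKO cells went from 142, 151 and 145 TPM to 73.2, 75.2 and 47.5 TPM. The libraries did not overlap, and the log2 fold change was -0.75 (SE 0.24, edgeR adjusted p = 0.0371) in WT cells and -0.87 (SE 0.24, edgeR adjusted p = 0.0124) in DKO cells. With DESeq2 neither gene passed in DKO cells (adjusted p = 0.239 for Mrpl58 and 0.16 for Mrpl34), with log2 fold changes of -0.58 and -0.68, and in WT cells Mrpl58 passed (0.025) and Mrpl34 did not (0.0688).

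**Figure D3:**
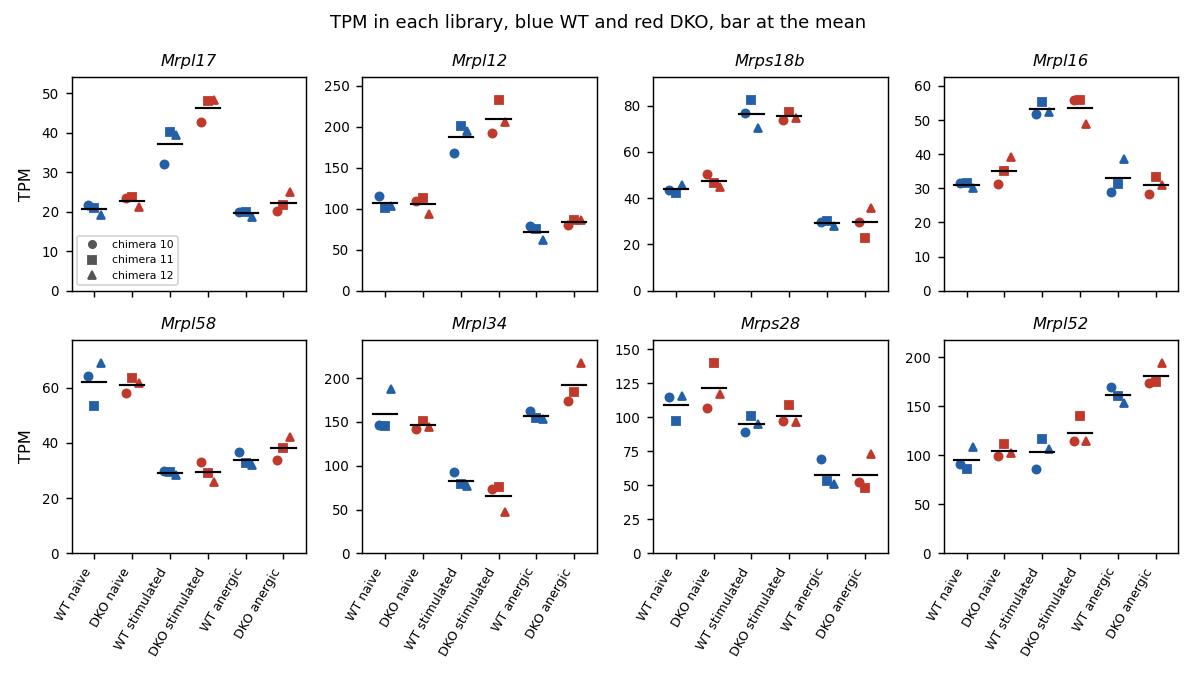
TPM of 8 genes in every library (blue, WT; red, DKO; circle, square and triangle, chimeras 10, 11 and 12; bar, mean of 3). Mrpl17, Mrpl12, Mrps18b and Mrpl16 were highest in stimulated cells, Mrpl58 and Mrpl34 were lowest there, Mrps28 was lowest in anergic cells and Mrpl52 was highest in anergic cells.

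How many genes passed depended on scaling and on single chimeras, while the direction of the called genes did not. Without chimera 11 the number called fell from 17 to 1 (Mrps6) in WT cells and from 22 to 5 in DKO cells (Mrpl12, Mrpl17, Mrpl20, Mrpl50 and Mrps6), and without chimera 12 it rose to 36 in DKO cells. With the naive and stimulated WT libraries of chimera 12 left out, 16 were called in WT cells and 48 in DKO cells. Shares over all genes were not set beside these numbers, so a change of the family cannot be told apart from one of all genes.

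The WT and DKO responses ran in parallel, gene by gene. All 15 genes that rose in WT cells rose in DKO cells too (100% of the WT list and 75% of the DKO list), and the 2 that fell were the same. These 2 comparisons share no library, although their libraries come from the same 3 chimeras. Both were drawn from the same model with a shared estimate of the spread of each gene, so their calls are not independent. Across the 77 genes the log2 fold changes correlated with a Pearson r of 0.969 and a Spearman rho of 0.956 (0.964 and 0.954 without Mrps6), given as a description, since genes are not independent replicates and both sets share gene length, base composition and the protocol. The interaction of genotype and stimulation was called for 0 of the 77 genes (edgeR; 0 at an unadjusted p below 0.05, and 0 with DESeq2), beside 0% higher and 0.00296% lower over all genes. The median interaction of the family was 0.08 on the log2 scale, with a median SE of 0.34 for single genes, so that only large differences between the genotypes could have been seen.

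**Figure D4:**
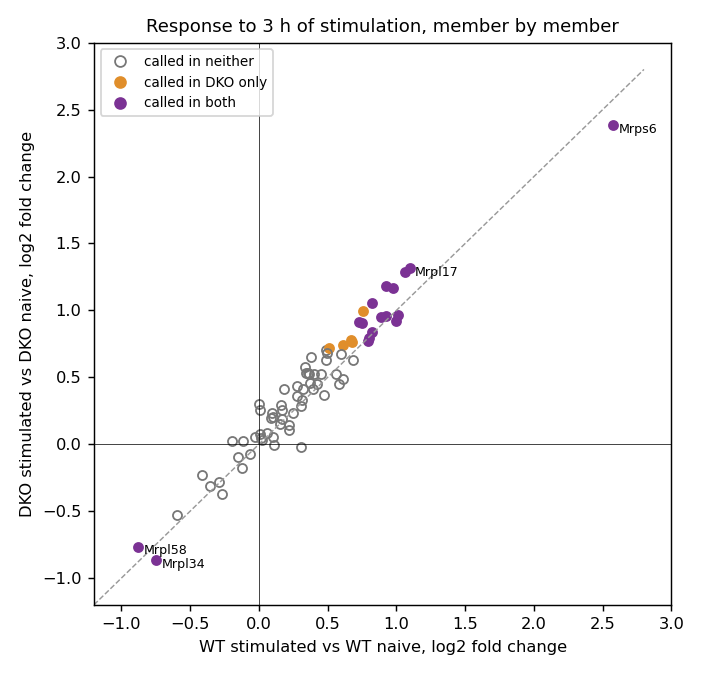
log2 fold change after 3 h of stimulation in WT cells (horizontal) and DKO cells (vertical) for the 77 genes, with the line of equality (dashed). Mrps6 stands apart at the upper right, Mrpl58 and Mrpl34 lie at the lower left, and the 5 genes called in DKO cells alone lie next to those called in both.

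By structural class the calls fell as follows. Of 29 large subunit proteins with a bacterial counterpart 8 rose and 1 fell in WT cells, and 10 rose and 1 fell in DKO cells. Of 21 tested large subunit proteins specific to mitochondria 3 rose and 1 fell, and then 5 and 1. Of 16 small subunit proteins with a bacterial counterpart 3 rose, and then 4, and of 10 small subunit proteins specific to mitochondria 1 rose in each genotype (Mrps18b). The median log2 fold changes of the 4 classes lay between 0.22 and 0.42 in WT cells and between 0.19 and 0.46 in DKO cells, and differences between classes were not tested.

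Promoter sequences were examined for letters that genes scattered over the genome have in common. RefSeq windows from 250 bases before to 50 bases after the annotated start (GRCm38.p6) were at hand for 69 of the 78 genes, 75 windows in all. Searched on both strands, the core of the motif of NRF1, a regulator of nuclear genes for mitochondria (GCGCANGCG), was in 21.3% of the windows, against 6.25% of all 32851 windows and 8.58% of those of protein-coding genes. The ETS core (CCGGAAG) was in 34.7%, against 8.86% and 11.6%, and a YY1 core (AANATGGCG) in 14.7%, against 2.38% and 3.12%. The E-box bound by MYC (CACGTG) was in 9.33%, against 7.15% and 7.84%. At least 1 of the 4 motifs was in 62.7% of the family's windows, against 20.9% of all windows and 25.9% of those of protein-coding genes. Of the 14 windows of genes that rose in both genotypes, 57.1% had at least 1. None of the 4 motifs contains another, and a match is a description of letters and not of binding.

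Stretches of 180 bases, from 150 before to 30 after the start, are shown for 7 genes: Mrps6, Mrpl16, Mrps18b, Mrpl17, Mrps10 and Mrpl12, the 6 with the smallest adjusted p in WT cells for a rise after stimulation, and Mrpl58, which fell. They are printed 5′ to 3′ on the strand of the gene, and capitals mark matches to the 4 motifs. Mrpl12 is at chr11:120484487-120484666 (plus strand), Mrpl16 at chr19:11770265-11770444 (plus), Mrpl17 at chr7:105811058-105811237 (minus), Mrps10 at chr17:47369047-47369226 (plus), Mrps18b at chr17:35916411-35916590 (minus), Mrps6 at chr16:92058186-92058365 (plus) and Mrpl58 at chr11:115403602-115403781 (plus).
Mrpl12: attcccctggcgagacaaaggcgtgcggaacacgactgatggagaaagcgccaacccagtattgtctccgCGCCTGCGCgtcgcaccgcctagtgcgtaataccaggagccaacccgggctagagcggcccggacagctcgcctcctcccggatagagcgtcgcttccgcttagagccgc
Mrpl16: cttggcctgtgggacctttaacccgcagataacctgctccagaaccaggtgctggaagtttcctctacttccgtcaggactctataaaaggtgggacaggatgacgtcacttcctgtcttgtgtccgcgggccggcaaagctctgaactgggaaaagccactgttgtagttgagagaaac
Mrpl17: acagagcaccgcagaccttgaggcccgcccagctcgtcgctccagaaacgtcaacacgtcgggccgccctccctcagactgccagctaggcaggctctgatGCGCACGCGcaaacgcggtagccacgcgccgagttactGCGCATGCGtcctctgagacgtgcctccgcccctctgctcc
Mrps10: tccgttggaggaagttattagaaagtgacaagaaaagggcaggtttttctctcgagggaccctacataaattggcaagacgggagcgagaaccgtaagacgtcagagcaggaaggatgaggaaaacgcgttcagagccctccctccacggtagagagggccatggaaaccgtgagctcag
Mrps18b: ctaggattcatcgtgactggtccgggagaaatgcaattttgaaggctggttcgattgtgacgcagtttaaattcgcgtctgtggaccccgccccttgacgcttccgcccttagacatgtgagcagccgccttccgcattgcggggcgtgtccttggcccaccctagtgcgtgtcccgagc
Mrps6: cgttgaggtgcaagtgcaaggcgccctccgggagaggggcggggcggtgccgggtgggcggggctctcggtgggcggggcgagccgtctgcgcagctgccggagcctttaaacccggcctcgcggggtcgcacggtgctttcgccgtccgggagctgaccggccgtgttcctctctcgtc
Mrpl58: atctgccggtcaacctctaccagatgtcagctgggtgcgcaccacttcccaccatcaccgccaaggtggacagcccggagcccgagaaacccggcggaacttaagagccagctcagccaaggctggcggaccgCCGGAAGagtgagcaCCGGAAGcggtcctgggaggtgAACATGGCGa
Mrpl17 carries 2 NRF1 matches in this stretch and Mrpl12 carries 1. Mrpl58, which fell, carries 2 ETS matches and 1 YY1 match, and Mrps6, Mrpl16, Mrps18b and Mrps10, which rose, carry none of the 4 motifs in it. RefSeq and GENCODE vM21 can place the start differently. All of the Mrps10 stretch lies after the start in GENCODE (chr17:47368887), so bases before that start were not examined in it.

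Genes of proteins with which the mitoribosome works were examined in the same comparison, with no test between lists. For these lists and the families after them, the shares among better expressed genes are the background. There 15.05% rose and 10.1% fell in WT cells, and 17.7% rose and 11.7% fell in DKO cells. Of 25 genes for mitoribosome assembly 3 rose and 1 fell in WT cells, and 5 rose and 2 fell in DKO cells. Mrm3, a methyltransferase of the large rRNA, had log2 fold changes of 1.42 (edgeR adjusted p = 0.000419) and 1.67 (5.49e-05). Nsun4, an rRNA methyltransferase needed for joining of the subunits, had 1.00 and 0.94, and Rcc1l, an assembly factor, had 0.94 and 1.21. Mpv17l2, a membrane protein involved in assembly, fell in both (-0.88 and -0.86).

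Of 15 mitochondrial translation factors 1 rose and 1 fell in WT cells (Mrrf, the recycling factor, 0.97; Guf1, a GTPase that acts on the elongating ribosome, -0.62), and 3 rose and 2 fell in DKO cells. The 3 that rose in DKO cells were Mrrf and the elongation factors Gfm1 (1.11, edgeR adjusted p = 0.00167) and Tufm (0.86, 0.0184). The 2 that fell there were Guf1 and Mtrf1. The 5 mitoribosomal proteins with other names gave 1 gene that rose, Ptcd3 of the small subunit (0.88 and 0.82). Of 8 genes for transcription or replication of mitochondrial DNA, Tfb2m, a transcription initiation factor (1.06 and 1.08), and Polg2, the accessory subunit of the replicative polymerase (0.66 and 0.88), rose. The 2 mitochondrial rRNAs, which form the core of the same particle, were not called in any comparison: mt-Rnr1 had log2 fold changes of -0.19 in WT and -0.14 in DKO cells, and mt-Rnr2 of 0.05 and -0.13. Neither carries a long poly(A) tail.

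Set beside other families, 8 of 84 nuclear respiratory chain genes rose and 1 fell in WT cells, and 13 rose and 1 fell in DKO cells, with medians of 0.21 and 0.24. Cytosolic ribosomal proteins hardly moved after 3 h: 2 of 86 rose in each genotype and 1 fell in WT cells, with medians of 0.01 and 0.07. Myc, a transcription factor that promotes ribosome production, was at 199.7, 167 and 181 TPM in WT naive cells and at 661, 957 and 1033 TPM in WT stimulated cells, with log2 fold changes of 2.54 in WT and 2.71 in DKO cells.

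**Figure D5:**
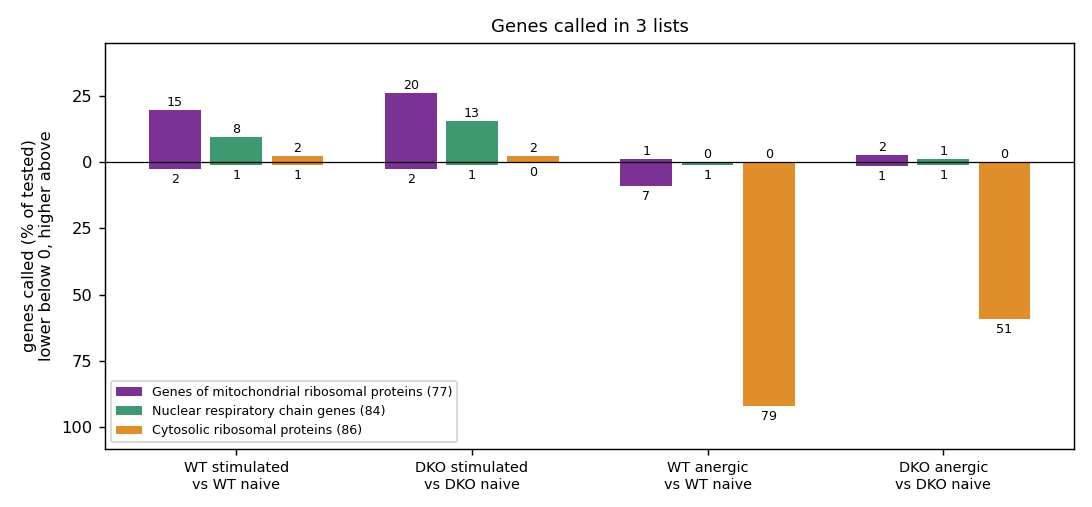
Share of the tested genes of 3 families that were called higher (bars above 0) or lower (below 0) in 4 comparisons, with the number of genes at each bar. After stimulation the mitochondrial ribosomal genes had 15 and 20 called higher and the cytosolic ribosomal proteins 2 and 2; in anergic cells the cytosolic family had 79 and 51 called lower and the mitochondrial family 7 and 1.

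Anergic cells were compared with naive cells of the same genotype, 2 populations that differ in the gate and in much else. In WT cells 1 gene of the family rose and 7 fell, where 5.11% of all genes rose and 4.71% fell. In DKO cells 2 rose and 1 fell, where 6.65% rose and 2.76% fell. The falls in WT cells amount to 9.09% of the family, close to the 9.82% of better expressed genes that fell. The median log2 fold change of the family was -0.39 in WT cells, with 70 of 77 values below 0, where better expressed genes had a median of 0.00. In DKO cells it was 0.01, with 38 values below 0, and better expressed genes had 0.04. By the mean of the deposited TPM 59 genes were lower in WT and 53 in DKO anergic cells. Markers of regulatory T cells moved with this comparison: their sum was between 25.7 and 37.6 TPM in WT naive and between 1314 and 1612 TPM in WT anergic cells, and between 29.2 and 37.5 TPM and between 419 and 466 TPM in DKO cells, with 7 of 7 markers called higher in WT cells and 6 of 7 in DKO cells and none at 0. Their part in the result was not tested. Proliferation markers summed to between 5.59 and 12.0 TPM in WT naive and between 27.6 and 38.7 TPM in WT anergic cells (4 of 5 called higher), and in DKO cells to between 13.2 and 18.04 TPM and between 25.3 and 27.9 TPM (3 of 5). CD8 and NK cell markers summed to between 77.2 and 87.4 TPM and between 215 and 258 TPM in WT cells, and to between 97.2 and 101 TPM and between 224 and 341 TPM in DKO cells, with Nkg7 and Klrb1c called higher and Cd8b1 lower in both. B cell markers stayed at most at 44.7 TPM in naive and anergic cells. Cd79b was called higher in both genotypes, and in DKO cells Pax5 was called higher and Cd79a lower. Myeloid markers summed to at most 36.9 TPM in these cells, with Itgam called lower in WT cells. The part of these markers in the result was not tested either.

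Mrps6 was again the gene that rose. It was at 113, 111 and 108 TPM in WT anergic cells and at 97.8, 112 and 124 TPM in DKO anergic cells, each of them above every naive library. The log2 fold change was 1.68 (SE 0.25, edgeR adjusted p = 3.05e-05) in WT and 2.24 (SE 0.26, edgeR adjusted p = 5.18e-07) in DKO cells. Slc5a3 rose here as well (1.42 and 1.23), so the caution on the shared exon holds for this comparison too. Mrpl52, of the large subunit, was at 169, 160.3 and 153 TPM in WT anergic and at 173, 175 and 194 TPM in DKO anergic cells, against 91.2, 85.6 and 109 TPM and 99.4, 112 and 102 TPM in naive cells. The anergic libraries lay above the naive ones in both genotypes, and the test was passed in DKO cells (log2 fold change 0.92, edgeR adjusted p = 0.0133) and not in WT cells (0.53, 0.226). In WT cells it passed without chimera 12, without only the naive and stimulated WT libraries of that chimera, and in both alternatives based on better expressed genes. In DKO cells it did not pass without chimera 11.

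Mrps28, a small subunit protein, fell in both genotypes. It was at 115, 97.5 and 116 TPM in WT naive and at 69.0, 53.0 and 51.2 TPM in WT anergic cells. DKO cells went from 107, 140.2 and 117 TPM to 52.2, 48.4 and 73.0 TPM. Naive and anergic libraries did not overlap, and the log2 fold change was -1.14 (SE 0.26, edgeR adjusted p = 0.00347) in WT and -0.97 (SE 0.26, edgeR adjusted p = 0.0136) in DKO cells. Mrpl58, the gene that also fell on stimulation, was at 36.8, 32.6 and 32.1 TPM in WT anergic cells, with a log2 fold change of -1.11 (SE 0.23, edgeR adjusted p = 0.0013). In DKO anergic cells it was at 33.9, 38.1 and 42.1 TPM, below every DKO naive library, with -0.56 (edgeR adjusted p = 0.15). Mrpl58 passed in DKO cells too, as a fall, without chimera 12, without its naive and stimulated WT libraries, with only the groups compared, and in both alternatives based on better expressed genes.

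Further genes that fell in WT cells were Mrpl30 (-0.82, edgeR adjusted p = 0.0135), Mrps18b (-0.81, 0.0188), Mrpl23 of the tunnel exit (-0.77, 0.0202), Mrps26 (-0.74, 0.0426) and Mrpl12 (-0.79, 0.0485). Of these, Mrps26 did not pass without the naive and stimulated WT libraries of chimera 12. In levels the genotypes were near each other for some of these genes. Mrpl30 was at 42, 34.6 and 41.4 TPM in WT anergic cells and at 42, 34.5 and 41.4 TPM in DKO anergic cells, from 59.1 ± 3.59 and 63.3 ± 2.23 TPM in naive cells. Its log2 fold change in DKO cells was -0.57 (edgeR adjusted p = 0.122), and it passed there, as did Mrps18b, in the same alternatives as Mrpl58. Mrps18b, which rose on stimulation, was at 29.6, 30.1 and 28.1 TPM in WT and at 29.8, 22.8 and 35.8 TPM in DKO anergic cells. Mrpl12 was at 78.5, 75.6 and 61.7 TPM in WT and at 79.7, 86.4 and 86.3 TPM in DKO anergic cells, the latter below every DKO naive library, with a log2 fold change in DKO cells of -0.21 (edgeR adjusted p = 0.733). TPM and the normalized counts of the test differ in scaling, which matters for changes of this size. The counts depended on the libraries used: in WT cells 3 genes were called without chimera 10 or without chimera 11 (Mrpl58, Mrps28 and Mrps6) and 6 without chimera 12, in DKO cells 2 without chimera 10, 1 without chimera 11 (Mrps6) and 6 without chimera 12, and without the naive and stimulated WT libraries of chimera 12 there were 8 and 11.

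Over the 77 genes the anergic against naive changes of both genotypes correlated with a Pearson r of 0.892 and a Spearman rho of 0.747 (0.807 and 0.736 without Mrps6). This is again a description, of comparisons with no shared library but from the same model. The sign was the same for 43 genes. The interaction of genotype and anergy was above 0 for 76 of the 77 genes, with a median of 0.43 on the log2 scale. By the mean of the deposited TPM it was above 0 for 54, with a median of 0.08. The better expressed genes also had a median above 0, of 0.26. The interaction was called for 0 genes of the family with edgeR and 0 with DESeq2. Over all genes edgeR called 0.228% higher and 0.157% lower. At an unadjusted p below 0.05 (edgeR) 2 were above 0, Mrpl34 and Mrpl49, with no share over all genes taken at that threshold.

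The cytosolic ribosome gave a different picture in these cells. Of its 86 tested proteins 79 were lower in WT anergic than WT naive cells and 51 in DKO cells, and none was higher, with median log2 fold changes of -1.28 and -0.88. Nuclear respiratory chain genes gave 0 higher and 1 lower in WT cells and 1 and 1 in DKO cells. Among better expressed genes 9.32% rose and 9.82% fell in WT cells, and 12.85% rose and 5.07% fell in DKO cells. Of the assembly genes 1 rose and 4 fell in WT cells: the RNA helicase Ddx28 (1.44, edgeR adjusted p = 0.00102) rose, also in DKO cells (1.93, 3.08e-05), and Mrm1 (-1.24), Rbfa (-1.31), Mtg1 (-1.16) and Noa1 (-0.86) fell. In DKO cells only Mtg1, a GTPase of large subunit assembly, fell among the 25 (-0.92). Chchd1, a small subunit protein, fell in WT cells (-0.78, edgeR adjusted p = 0.0405), as did Polg2 (-1.01, 0.0026). Myc was at 44.4, 36.6 and 46.0 TPM in WT anergic cells, below its naive level, with log2 fold changes of -2.34 and -2.02.

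Comparisons between genotypes asked whether loss of Nr4a1 and Nr4a3 changed these genes within a population. None of the 77 passed in any of them. Between DKO and WT naive cells 0 were called (edgeR; 0 at an unadjusted p below 0.05; 0 with DESeq2), where 0.0385% of all genes were higher and 0.0562% lower. The family's median log2 fold change was -0.14 and that of the better expressed genes -0.08, and without the naive and stimulated WT libraries of chimera 12 the family's median was 0.02. Between DKO and WT stimulated cells 0 were called with edgeR and 0 with DESeq2, where edgeR called 0.0473% of all genes higher and 0.169% lower. At an unadjusted p below 0.05 (edgeR) 0 were higher and 1 lower, Mrps6, with no share over all genes taken at that threshold. The family's median was -0.05 and that of the better expressed genes -0.06, and its sign turned under other scalings. Mrps6 was at 104, 109 and 114 TPM in DKO and 133, 155 and 167.5 TPM in WT stimulated cells, without overlap, with a log2 fold change of -0.53 (SE 0.25, edgeR adjusted p = 1).

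Between DKO and WT anergic cells 0 were called with edgeR and 0 with DESeq2, where edgeR called 0.879% of all genes higher and 0.459% lower. At an unadjusted p below 0.05 (edgeR) 3 were higher and 0 lower, and no share over all genes was taken at that threshold. The 3 were Mrpl48 (log2 fold change 0.49, edgeR adjusted p = 0.453), Mrpl34 (0.52, 0.537) and Mrpl19 (0.52, 0.546). Of the 77 values 75 were above 0, with a median of 0.29, where better expressed genes had a median of 0.16, also above 0. That count rests on the scaling of the counts: by the mean of the deposited TPM 55 genes were higher and 22 lower in DKO cells. Mrpl34 was at 163, 154 and 153 TPM in WT and at 174, 185 and 218 TPM in DKO anergic cells, and Mrpl48 at 10.3, 8.46 and 9.91 TPM in WT and 10.8, 11.1 and 12.3 TPM in DKO anergic cells, in both cases without overlap. Without the naive and stimulated WT libraries of chimera 12, which are not part of this comparison but share its estimate of spread and its scaling, 2 genes passed (Mrpl34 and Mrpl48). Of the 7 regulatory T cell markers 5 were called lower in the DKO cells, with sums of between 419 and 466 TPM against between 1314 and 1612 TPM, and their part in these differences was not tested. The median SE of a single gene was 0.24 on the log2 scale, so a difference of the size of these medians was not detectable gene by gene with 3 chimeras.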

How the data were processed

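Per the labels and the study's methods, the authors sequenced SMART-seq v4 libraries (paired reads, stated in the labels with more than 1 read length), trimmed them with fastp, aligned them with STAR to mm10, counted reads per gene with featureCounts and tested them with edgeR. No source used here gives versions, annotation or strand setting. The deposited workbook holds raw counts per gene, and TPM that the authors computed per library. Its sheets of the authors' own comparisons (fold changes and p-values) were not used. Unnamed rows (0.0654% to 0.136% of counts) were left out.

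Levels are the deposited TPM. Counts were tested with edgeR 4.0.16 in R 4.3.3 (TMM factors, filterByExpr by group, glmQLFit and glmQLFTest) on all 18 libraries, with a term for the chimera, because the WT and DKO cells of 1 number came from the same animal and the study's analysis was paired. Deviations of same-chimera WT and DKO libraries from their group means correlated between -0.0811 and 0.298 over all genes. Adjusted p-values are Benjamini-Hochberg over 33795 genes, and calls are at 0.05. Replicate libraries differed by more than counting noise. The code was tested on simulated counts. Alternatives were DESeq2 1.42.0 or its size factors, TMM from genes with log2 CPM over 1, other filters, only the groups compared, no chimera term, and leaving out chimeras or the 2 doubtful WT libraries of chimera 12.

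Members and lists were chosen with earlier results of these data known. The text names the 5 highest and 3 lowest genes by mean TPM, up to 6 called genes in each direction and comparison by smallest adjusted p, genes called against the main direction, the S18 and stalk genes, and up to 4 genes of each other list; further names were added after their values were seen. Annotation is GENCODE vM21 and promoters are RefSeq on GRCm38.p6.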

Additional observations from a re-analysis of the deposited data

How the results depend on the processing

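The 50 calls of single genes kept their direction under all 11 alternatives (550 values), and 440 of the values passed the threshold. The numbers called moved more, and shares over all genes under the same alternatives were not set beside them. In WT stimulated against naive cells (17 called) they were 4 with DESeq2's size factors, 9 with DESeq2, 10 without the low-count filter, 32 with TMM from genes with log2 CPM over 1, 34 with only those genes tested, and 1 to 20 on leaving out 1 chimera. In DKO cells (22 called) they were 41 with that TMM, 42 with those genes, 51 with only the groups compared, 48 without the naive and stimulated WT libraries of chimera 12, and 5 to 36 on leaving out 1 chimera. In WT anergic against naive cells (8 called) they were 16 and 19 with that TMM and those genes, 13 without the filter, 5 with only the groups compared, and 3 to 6 on leaving out 1 chimera. In DKO cells (3 called) they were 8, 10 and 18 with that TMM, those genes and only the groups compared, 11 without the 2 WT libraries, and 1 to 6 on leaving out 1 chimera. DKO against WT anergic cells went from 0 to 2 without those 2 libraries. Without the replicate block the numbers were 18 and 23 after stimulation and 8 and 3 in anergic cells, and no genotype comparison had a call. The share of rising genes among those called in WT cells after stimulation was lower without the filter (6 higher, 4 lower) and with only the groups compared (9 and 4). Mrpl10 in WT stimulated cells, near 0, turned to -0.041 with DESeq2 or its size factors, -0.040 with that TMM, -0.069 with those genes, -0.27 without the filter, -0.28 with only the groups compared, and -0.18 without chimera 12 or its 2 WT libraries (-0.18 to 0.35 on leaving out 1 chimera). Mrpl11 turned to -0.18 without the filter, -0.17 with only the groups compared, and -0.0014 and -0.0018 without chimera 12 or its 2 WT libraries (-0.0014 to 0.45 on leaving out 1 chimera). Family medians turned sign between DKO and WT stimulated cells (-0.05; 0.08 with that TMM, 0.07 without the filter or with those genes, 0.03 with only the groups compared, 0.25 without chimera 12 and 0.34 without its 2 WT libraries) and between DKO and WT naive cells (0.04 and 0.02 without these). The cause of these shifts was not tested. Only Mrpl53 had too few counts to be tested, and the reason for its low value was not tested.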
